A study of Mus musculus with 2 samples.

Results

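The transition from G1 into S phase was examined through 10 genes, 3 D-type cyclins (*Ccnd1*, *Ccnd2* and *Ccnd3*), both E-type cyclins (*Ccne1* and *Ccne2*), the kinases *Cdk2*, *Cdk4* and *Cdk6*, the inhibitor *Cdkn1b* (p27) and the pocket protein gene *Rb1*. They were chosen by name as the core of this step of the cell cycle, and each was 1 of the 54146 rows of the count tables, found by its Ensembl identifier. All 10 had at least 1 UMI in the ES cells of both libraries, and 9 of them passed the minimum of 200 UMIs over both libraries that was set for counts of genes, a minimum met by 9643 genes in all. *Rb1*, with 45 UMIs, did not pass.

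D-type cyclins bind and activate CDK4 and CDK6, and E-type cyclins do the same for CDK2. These kinases phosphorylate RB1 and its relatives, which then release E2F factors to switch on the genes of S phase, while CDKN1B binds cyclin-CDK complexes and holds CDK2 inactive. Mouse ES cells are known for a short G1 phase, and G1 cyclins and kinases have been described among the transcripts that are held low by the let-7 miRNA family, whose maturation is blocked by LIN28.

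The study compared wild-type (WT) ES cells, clone a2.1, labelled untreated and described in the study as a transfected clone, with *Lin28a* knockout ES cells, clone a3.5, in which CRISPR/Cas9 was aimed at the second exon of *Lin28a*. Both lines came from the inner cell mass and were grown in LIF/2i medium, which holds them in the naive state, on mouse embryonic fibroblast (MEF) feeder cells, which stay in the samples. Each genotype was 1 clone and 1 inDrop library, a droplet method that tags each captured transcript near its 3′ end with a molecular identifier (UMI). No test between genotypes was therefore possible, all intervals are 95% intervals that cover counting error only, and genotype, clone and library cannot be told apart.

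A barcode was taken as a cell where it had 500 UMIs or more and no more than 0.2 of them on mitochondrial genes. The 48 WT and 23 knockout-library cells with at least 0.3% of UMIs on *Col1a1*, *Col1a2* and *Col3a1* were kept apart as fibroblasts, which left 1808 WT and 1599 knockout ES cells with medians of 6112 and 5072 UMIs and totals of 11207628 and 9225733 UMIs. The label of ES cells matched the pluripotency factor *Pou5f1*, at 869 UMIs per 1000000 UMIs (CPM) in WT and 1025 CPM in knockout ES cells against 46.3 and 174 CPM in the fibroblasts. *Lin28a* (chromosome 4 from 134003330 to 134018841 of GRCm38) was at 110.5 CPM in WT and 36.9 CPM in knockout ES cells, a ratio of 0.333 (interval 0.295 to 0.376). Its UMIs come from transcript ends away from the cut and do not check the deletion itself. Barcodes carry only running numbers within a library, so barcodes shared by the libraries could not be counted.

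The let-7 sequences are shown first because they are the link between LIN28 and these genes in the background above. Of 11 mature let-7 and miR-98 5′ sequences in RefSeq (GRCm38.p6), 10 shared the seed of bases 2 to 8, given in capitals, and let-7j did not.
mmu-let-7a-5p, chr13:48538239-48538260, minus strand: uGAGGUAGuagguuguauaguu
mmu-let-7g-5p, chr9:106178846-106178867, plus strand: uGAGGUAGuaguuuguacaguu
mmu-let-7j, chr3:140028281-140028304, plus strand: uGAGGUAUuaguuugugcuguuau

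The longest annotated 3′ untranslated region of each member (GENCODE M21, sense strand) was searched for the 7 letters CTACCTC, the reverse complement of that seed, and for TACCTCA, in which an A follows the match to bases 2 to 7. The second form was added after the first was seen, and both forms overlap where CTACCTC is followed by an A. CTACCTC was found once, in *Cdk4*, and TACCTCA was found 3 times in *Ccnd2* and once each in *Ccnd1*, *Cdk6* and *Rb1*. *Ccnd3*, *Ccne1*, *Ccne2*, *Cdk2* and *Cdkn1b* held neither in this window. Among all 21037 annotated genes with such a region 9.02% held CTACCTC and 9.78% held TACCTCA, and the regions differed in length, from 531 bases in *Ccne1* to 10217 bases in *Cdk6*. The matches are shown with the 7 letters in capitals, and a match is a run of letters, not a shown site. Of the counted genes with an annotated region, 850 held CTACCTC and had a median knockout over WT ratio of 0.995, and 7091 did not and had a median of 1.001. Of the former 7.88% were past 1.5-fold lower and 3.77% higher, and of the latter 7.43% and 4.92%. The sets differed in the median length of the region, 2566 and 1086 bases. The split used CTACCTC alone, so *Ccnd1*, *Ccnd2* and *Cdk6*, with TACCTCA only, were among the 7091. An effect of let-7 was not tested.
*Ccnd1*, chr7:144930596-144930619, minus strand: ggttcctgttcacaaTACCTCAtg
*Ccnd2*, chr6:127128298-127128321, minus strand: aaagagagtattcttTACCTCAgg
*Ccnd2*, chr6:127128220-127128243, minus strand: ttttcgttttcctaaTACCTCAca
*Ccnd2*, chr6:127125584-127125607, minus strand: tatccttctgccatgTACCTCAga
*Cdk4*, chr10:127067658-127067681, plus strand: cctagggcccgaggcCTACCTCcc
*Cdk6*, chr5:3521624-3521647, plus strand: tttaaggagtgagtgTACCTCAga
*Rb1*, chr14:73196557-73196580, minus strand: ctgacacagatttcaTACCTCAga

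In WT ES cells *Cdk4* and *Ccnd3* had the most UMIs of the 10 genes and *Rb1* the fewest. Values are CPM and are not divided by length, since a captured transcript gives 1 UMI whatever its length. *Cdk4* stood at 449 CPM and *Ccnd3* at 361 CPM. *Ccnd1*, at 181 CPM, and *Ccne1*, at 172 CPM, came next with overlapping intervals, and so did *Cdk2*, at 110.3 CPM, and *Cdk6*, at 105 CPM. *Ccnd2* at 31.7 CPM and *Cdkn1b* at 28.2 CPM also overlapped, above *Ccne2* at 13.1 CPM and *Rb1* at 2.50 CPM. In knockout ES cells the order was the same except that *Ccne1*, at 161 CPM, stood above *Ccnd1*, at 122 CPM, and the only neighbours with overlapping intervals were *Ccnd1* and *Cdk2*, at 119 CPM.

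**Figure D1:**
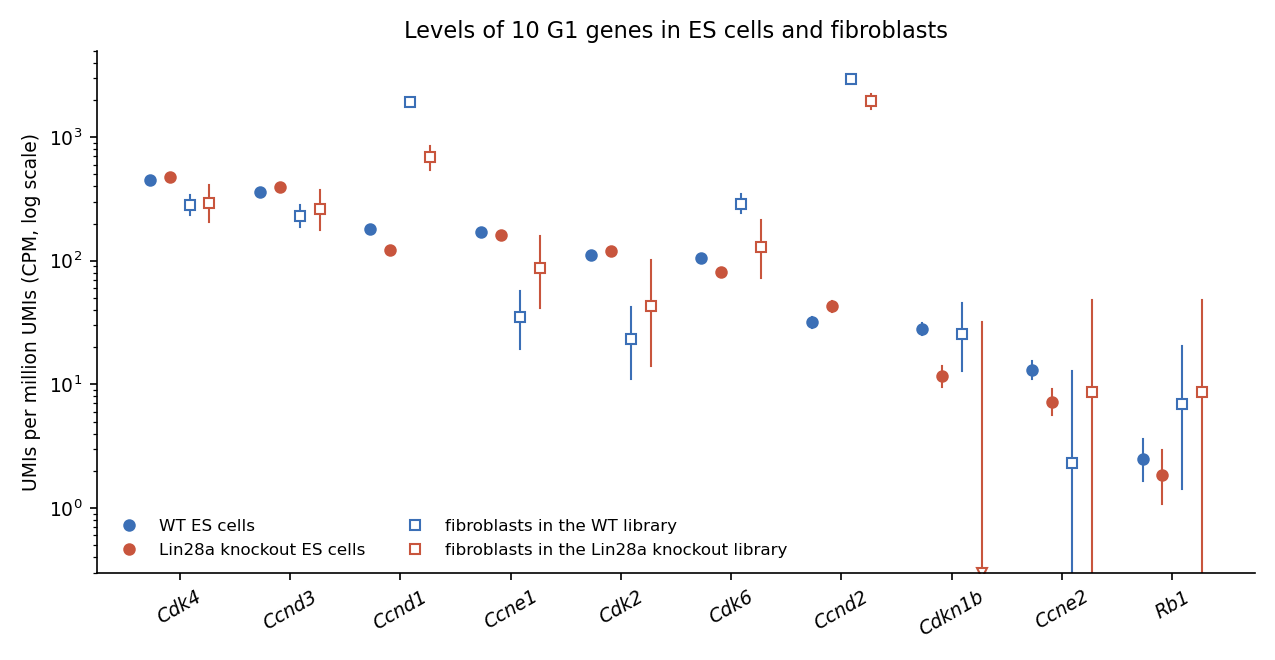
CPM (log axis) of the 10 genes in ES cells (filled circles) and fibroblasts (open squares) of the WT (blue) and *Lin28a* knockout (red) libraries, with vertical lines for exact Poisson 95% intervals. *Ccnd1* and *Ccnd2* lay far higher in fibroblasts than in ES cells, *Cdk4* and *Ccnd3* were the highest in ES cells, and the open triangle marks 0 *Cdkn1b* UMIs in the 23 fibroblasts of the knockout library.

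Between the genotypes, *Cdkn1b* and *Ccne2* were lower in knockout ES cells by more than 1.5-fold, and *Ccnd1* lay just inside that limit at 0.673. *Ccnd1* passed the limit in 6 of 14 processing alternatives, with ratios from 0.523 to 0.663, so its side of the limit was not settled. Thus 2 of the 9 counted members were past 1.5-fold lower, where 7.89% of the 9643 genes were, and 0 of 9 were past 1.5-fold higher, where 6.88% were. The median ratio of knockout over WT was 0.935 over the 9 members and 1.02 over all 9643 genes. Summed over all 10 genes, the level was 1454 CPM in WT and 1421 CPM in knockout ES cells, a ratio of 0.978 (interval 0.955 to 1), so the sum was near even while single genes differed. *Cdk4* and *Ccnd3*, with 9438 and 7703 UMIs over both libraries, weigh most in this sum, and it says little about the other genes.

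Among the D-type cyclins, *Ccnd1* (chromosome 7 from 144929931 to 144939925 of GRCm38, minus strand), the mitogen-responsive cyclin D1, had 2029 UMIs in WT and 1124 UMIs in knockout ES cells. That was 181 CPM (173 to 189) in WT and 122 CPM (115 to 129) in knockout, a ratio of 0.673 (0.625 to 0.724). *Ccnd3* (chromosome 17 from 47505051 to 47599691, plus strand), the cyclin D3 gene, was at 361 CPM (349.5 to 372) in WT and 397 CPM (384 to 410.0) in knockout, a ratio of 1.101 (1.05 to 1.15). *Ccnd1* was thus lower and *Ccnd3* slightly higher, and their intervals did not reach 1. *Ccnd3* overlaps *Bysl* on the other strand, which had 854 and 950 UMIs, and reads of the pair cannot be told apart without strand, whose use in the counting is not known here.

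*Ccnd2* (chromosome 6 from 127125162 to 127152193, minus strand), the cyclin D2 gene, had 355 UMIs in WT and 394 UMIs in knockout ES cells, or 31.7 CPM (28.5 to 35.2) and 42.7 CPM (38.6 to 47.1). Its ratio of 1.35 (1.17 to 1.56) depended on which cells were counted and ranged from 0.475 with fibroblasts left in to 2.07 in cells with at least 2000 UMIs. In the WT library 6 cells held 192 of the 355 UMIs, 3 to 65 each. Those 6 cells, chosen for their *Ccnd2* UMIs, had 3 UMIs on 6 core pluripotency markers, or 349.8 CPM against 2912 CPM in the other WT ES cells, and 5 of them had no UMI of the 3 collagens of the fibroblast rule. In the knockout library 5 such cells held 76 of 394 UMIs. They had 184 CPM of the 6 core markers against 3186 CPM in the other knockout ES cells, 2 of them had no UMI of the 3 collagens, and *Col1a1* was at 1288 CPM in them against 17.7 CPM in the others. Outside these cells *Ccnd2* was at 14.5 CPM in WT and 34.6 CPM in knockout. When all cells without a UMI of the 6 core markers were left out, a choice made after these values were seen, the levels were 23.4 and 40.6 CPM and the ratio was 1.73 (1.48 to 2.04). When instead cells with at least 0.1% of UMIs on 17 fibroblast markers were left out, also chosen after these values were seen, the levels were 29.7 and 34.6 CPM and the ratio was 1.17 (0.996 to 1.36), with an interval that held 1.

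The make-up of the D-type cyclins moved with these single-gene differences, while their sum did not. All 3 together stood at 573 CPM in WT and 561.5 CPM in knockout ES cells, a ratio of 0.979 (0.944 to 1.02). *Ccnd3* made up 62.9% of D-type cyclin UMIs (Clopper-Pearson interval 61.7 to 64.1) in WT and 70.7% (69.4 to 71.9) in knockout ES cells. *Ccnd1* made up 31.6% (30.4 to 32.7) and 21.7% (20.6 to 22.9), and *Ccnd2* 5.53% (4.98 to 6.11) and 7.61% (6.90 to 8.36). These shares do not depend on how the libraries are scaled, but 192 of the 355 *Ccnd2* UMIs in WT came from the 6 cells described above.

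**Figure D2:**
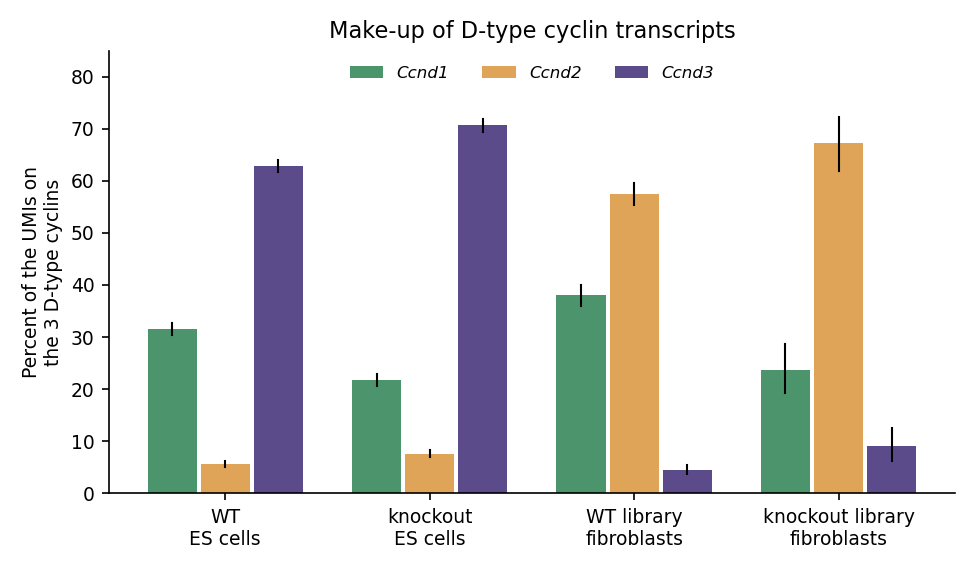
Percent of all UMIs on the 3 D-type cyclins that belonged to *Ccnd1*, *Ccnd2* and *Ccnd3*, in ES cells and in fibroblasts of each library (bars from 0, lines are Clopper-Pearson 95% intervals). *Ccnd3* led in ES cells with 62.9% in WT and 70.7% in knockout, and *Ccnd2* led in fibroblasts with 57.5% and 67.3%.

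Over all ES cells the E-type cyclins differed from each other in ratio, but not in the deepest class of cells given below. *Ccne1* (chromosome 7 from 38097984 to 38107534, minus strand), the cyclin E1 gene, had 1932 UMIs in WT and 1487 UMIs in knockout ES cells, or 172 and 161 CPM, with a ratio of 0.935 (0.873 to 1.001) whose interval reached 1. *Ccne2* (chromosome 4 from 11191351 to 11204779, plus strand), the cyclin E2 gene, had 147 and 67 UMIs, or 13.1 CPM (11.1 to 15.4) and 7.26 CPM (5.63 to 9.22), with a ratio of 0.554 (0.408 to 0.744). The interval of *Ccne2* reached across the lower 1.5-fold limit. *Ccne2* overlaps *Ints8* on the other strand, which had 365 and 251 UMIs. *Ccne1* made up 92.9% of E-type cyclin UMIs in WT and 95.7% in knockout ES cells, and the intervals, 91.7 to 94.0 and 94.6 to 96.6, did not overlap.

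The kinases were close to even except *Cdk6*. *Cdk4* (chromosome 10 from 127063534 to 127067920, plus strand), the gene with more UMIs here of the kinases that D-type cyclins activate, had 5037 and 4401 UMIs, or 449 and 477 CPM, a ratio of 1.06 (1.02 to 1.11). It overlaps *Tspan31* on the other strand, which had 610 and 554 UMIs. *Cdk6* (chromosome 5 from 3341485 to 3531008, plus strand), the other kinase that D-type cyclins activate, had 1173 and 753 UMIs, or 105 CPM (98.8 to 111) in WT and 81.6 CPM (75.9 to 87.7) in knockout, a ratio of 0.780 (0.711 to 0.855). *Cdk2* (chromosome 10 from 128697939 to 128705031, minus strand), the kinase of the E-type cyclins, had 1236 and 1100 UMIs, or 110.3 and 119 CPM, a ratio of 1.08 (0.996 to 1.17) whose interval held 1. Of the UMIs on *Cdk4* and *Cdk6* together, *Cdk6* had 18.9% in WT (17.9 to 19.9) and 14.6% in knockout ES cells (13.7 to 15.6).

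*Cdkn1b* (chromosome 6 from 134920401 to 134925513, plus strand), which encodes the CDK inhibitor p27, had the lowest ratio of the 10 genes. It had 316 UMIs in WT and 107 UMIs in knockout ES cells, or 28.2 CPM (25.2 to 31.5) and 11.6 CPM (9.51 to 14.01), a ratio of 0.411 (0.327 to 0.514), which is 2.43-fold lower (1.95 to 3.06). In barcodes under 500 UMIs *Cdkn1b* was at 25.0 CPM in the WT library and 43.1 CPM (28.9 to 61.9) in the knockout library, so the shallow barcodes of the knockout library did not show the lower level of its ES cells. Nor did they for *Ccnd1*, at 164 and 171 CPM in these barcodes, or *Ccne2*, at 36.4 and 32.7 CPM. *Cdk6* was lower in those of the knockout library, at 178 and 113 CPM. *Rb1* (chromosome 14 from 73183673 to 73325822, minus strand), the retinoblastoma gene, had 28 and 17 UMIs, and at this depth its ratio of 0.738 (0.379 to 1.39) showed no detectable difference.

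**Figure D3:**
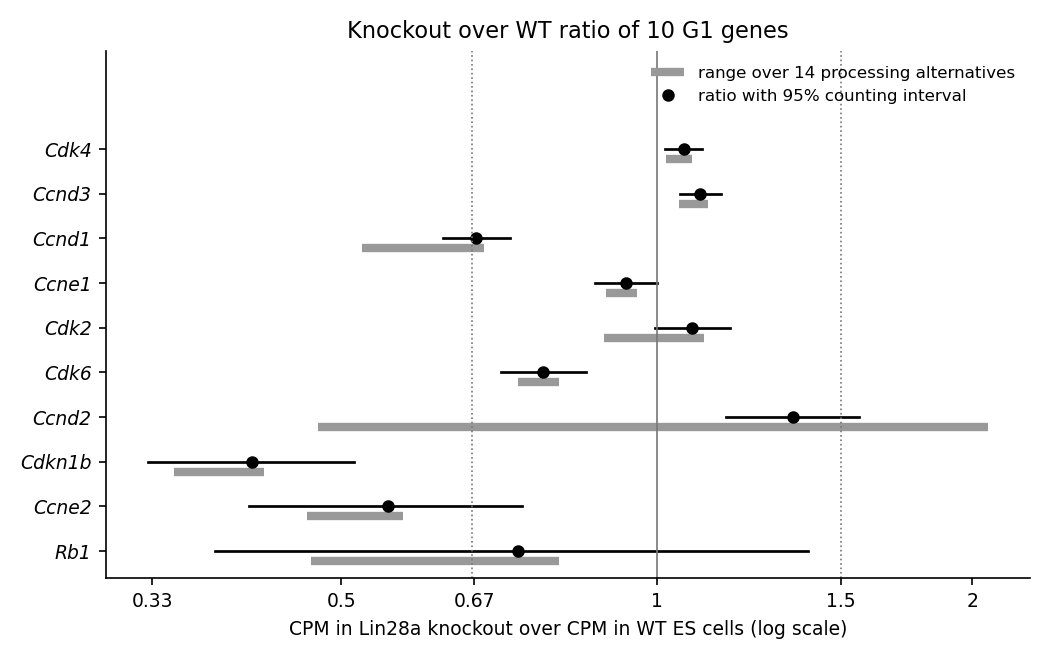
Ratio of CPM in *Lin28a* knockout over WT ES cells for each gene (points, log axis) with exact 95% counting intervals (black lines) and the range over 14 processing alternatives (grey bars), with dotted lines at 1.5-fold. *Cdkn1b* at 0.411 and *Ccne2* at 0.554 lay past the lower line, *Ccnd1* at 0.673 next to it, and the grey bar of *Ccnd2* crossed 1.

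The shares of cells with a UMI were lower in the shallower knockout library for 9 of the 10 genes, so they are given also for a fixed 500 UMIs per cell. A *Ccnd1* UMI was found in 1010 of 1808 WT ES cells (55.9%, 53.5 to 58.2) and 592 of 1599 knockout ES cells (37.0%, 34.7 to 39.4), and at 500 UMIs per cell in 8.13% and 5.51%. For *Cdkn1b* the shares were 15.2% (13.5 to 16.9) and 5.88% (4.78 to 7.15), and 1.59% and 0.539% at 500 UMIs. For *Cdk6* they were 41.3% and 30.8%, and 5.14% and 4.11% at 500 UMIs, and for *Ccne2* 7.36% and 3.75%, and 0.702% and 0.326%. *Ccnd2* went the other way, with a UMI in 7.96% of WT and 13.7% of knockout ES cells, and 1.39% and 2.24% at 500 UMIs. *Ccnd3*, *Cdk4* and *Cdk2*, whose CPM was slightly higher in knockout, had a UMI in fewer knockout cells, 67.4% against 75.9% for *Ccnd3*, 69.7% against 83.6% for *Cdk4* and 35.6% against 42.0% for *Cdk2*. At 500 UMIs the shares in WT and knockout were 15.5% and 17.2% for *Ccnd3*, 19.2% and 19.3% for *Cdk4*, and 5.12% and 4.57% for *Cdk2*. At least 1 UMI of any D-type cyclin was found in 85.6% and 74.7% of ES cells, but at 500 UMIs the shares were 23.3% and 23.5%. For comparison, in the fibroblasts of the WT and knockout libraries a UMI was found for *Ccnd1* in 87.5% and 65.2% of cells, for *Ccnd2* in 89.6% and 78.3% and for *Ccne1* in 18.8% and 13.0%. *Cdkn1b* UMIs were in 9 of 48 fibroblasts of the WT library and in 0 of 23 of the knockout library.

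A single cell showed only part of the group. The median cell had UMIs of 4 of the 10 genes in WT and of 3 in knockout, and 83 WT and 195 knockout ES cells had none. In positive cells the median was 1 UMI for *Ccne1*, *Ccne2*, *Cdk2*, *Cdk6*, *Cdkn1b*, *Rb1* and *Ccnd2* in both libraries. The largest counts in 1 cell outside the fibroblast rule were 65 UMIs of *Ccnd2* and 26 UMIs of *Ccnd1* in WT. Both were found in 1 of the 6 WT cells described above, which had few UMIs on the core pluripotency markers.

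Because knockout cells were shallower, the ratios were taken again within 4 classes of depth, from 500 to 2000, to 5000, to 10000 and above 10000 UMIs, with 208, 404, 1023 and 173 WT and 502, 285, 501 and 311 knockout ES cells. *Ccnd1* was lower in knockout in 4 of 4 classes, with ratios from 0.548 to 0.707, and *Cdkn1b* in 4 of 4, with ratios from 0.236 to 0.503, each with an interval below 1 in every class. *Cdk6* ranged from 0.572 to 0.947 and had an interval below 1 in 3 classes. *Ccne2* ranged from 0.390 to 0.895 and had an interval below 1 only in the class from 5000 to 10000 UMIs, where its ratio was 0.444 (0.266 to 0.709). *Ccnd3* ran from 1.44 (1.03 to 2.05) in the shallowest class to 1.002 (0.921 to 1.09) in the deepest. *Cdk2* changed side, from 0.507 (0.272 to 0.957) below 2000 UMIs to 1.197 (1.03 to 1.40) above 10000 UMIs. *Ccne1* was lower above 10000 UMIs, at 0.787 (0.695 to 0.892), where *Ccne2* was at 0.895 (0.509 to 1.61). In the other classes the interval of *Ccne1* held 1.

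*Ccnd2* differed most between classes. Below 2000 UMIs it was at 751 CPM in WT and 83.7 CPM in knockout, a ratio of 0.111 (0.0763 to 0.159). From 2000 to 5000 UMIs it was at 53.5 and 56.5 CPM, a ratio of 1.05 (0.740 to 1.49) whose interval held 1. From 5000 to 10000 UMIs it was at 12.2 and 33.5 CPM, a ratio of 2.74 (2.07 to 3.64), and above 10000 UMIs at 18.6 and 42.8 CPM, a ratio of 2.298 (1.62 to 3.33). The 6 WT cells with few pluripotency UMIs described above had a median depth of 1082 UMIs.

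**Figure D4:**
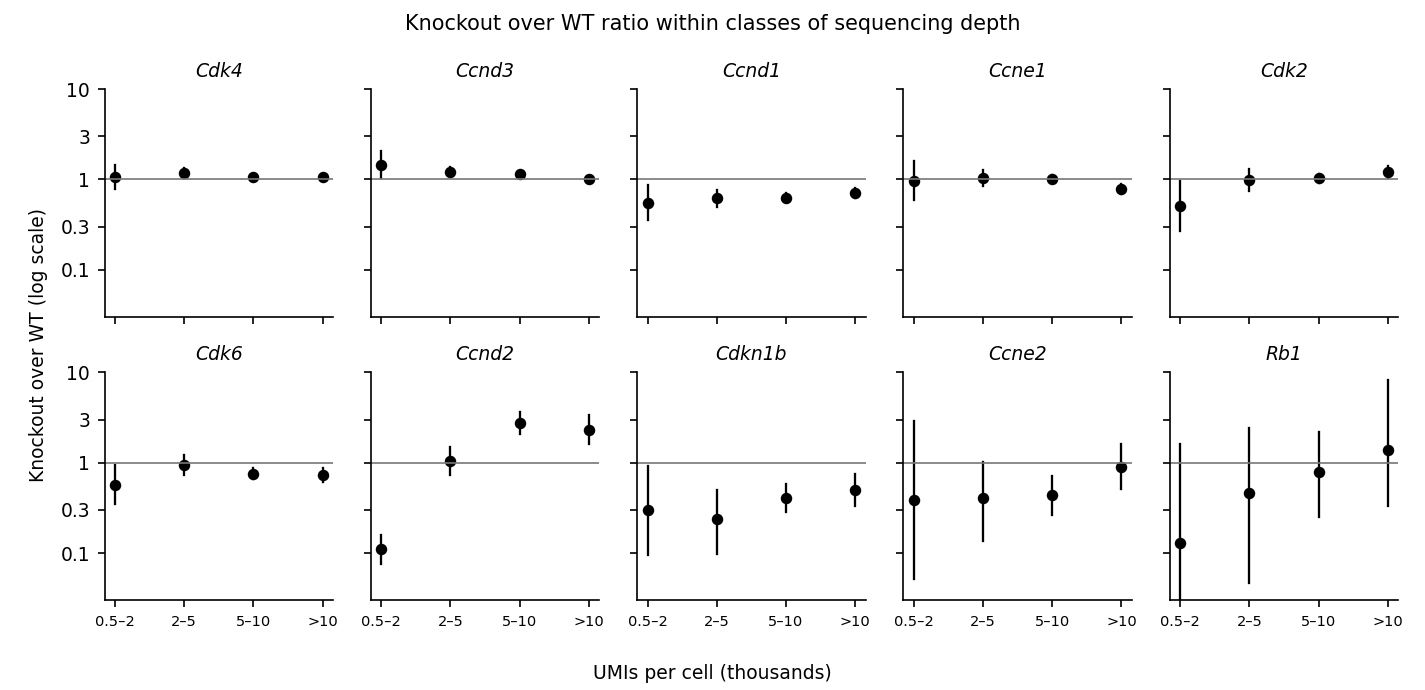
Ratio of CPM in knockout over WT ES cells (log axis, lines are exact 95% counting intervals) within 4 classes of UMIs per cell, 1 panel per gene. *Ccnd1* and *Cdkn1b* lay below 1 in all 4 classes, and *Ccnd2* went from 0.111 in the shallowest class to 2.74 and 2.298 in the deepest classes.

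Most of the G1 genes had other levels in fibroblasts than in ES cells. *Ccnd2*, *Ccnd1* and *Cdk6* were higher and *Ccnd3*, *Ccne1*, *Cdk2* and *Cdk4* lower in fibroblasts than in the ES cells of the same library, by at least 1.5-fold in both libraries. That is 3 of 9 counted members higher, where 14.4% of 9835 genes were, and 4 of 9 lower, where 29.7% were. The ratios of *Ccnd3*, 0.643 (0.522 to 0.784) and 0.6565 (0.442 to 0.939), lay close to the lower limit. So did those of *Cdk4*, 0.629 (0.521 to 0.753) and 0.619 (0.428 to 0.8665), and all 4 intervals reached across it. *Ccnd2* was at 2933 CPM in the fibroblasts of the WT library and 1946 CPM in those of the knockout library, 92.6-fold (82.2 to 104.5) and 45.6-fold (38.5 to 53.8) above ES cells. *Ccnd1* was at 1939 and 686 CPM, 10.7-fold (9.87 to 11.6) and 5.63-fold (4.43 to 7.08) above.

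*Cdk6* was at 290 CPM and 130 CPM in fibroblasts, 2.77-fold (2.28 to 3.33) above ES cells in the WT library and 1.60-fold (0.889 to 2.65) in the knockout library, where 15 UMIs left the interval across 1. *Ccne1* was at 34.7 and 86.9 CPM, ratios to ES cells of 0.202 (0.113 to 0.333) and 0.539 (0.258 to 0.994), and *Cdk2* at 23.2 and 43.4 CPM, ratios of 0.210 (0.101 to 0.388) and 0.364 (0.118 to 0.853). Within the D-type cyclins *Ccnd2* made up 57.5% and 67.3% of fibroblast UMIs and *Ccnd3* 4.54% and 9.01%. *Cdkn1b* was at 25.5 CPM in the fibroblasts of the WT library and had 0 UMIs in those of the knockout library, which allows up to 26.1 CPM. Of the other CDK inhibitor genes, *Cdkn1a* was at 2896 and 1789 CPM in fibroblasts, 12.8-fold and 8.39-fold above ES cells. *Cdkn2a* was 7.26-fold and 6.77-fold above, and *Cdkn2d* was lower, with 3 and 0 UMIs. The fibroblasts of the knockout library had a median of 2295 UMIs against 8132 in the WT library.

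The part of fibroblast RNA in the ES levels of *Ccnd1* and *Ccnd2* was not tested, and its markers were as follows. All 14 fibroblast markers outside the rule had UMIs in the ES cells of both libraries, where they summed to 17.3 CPM in WT and 27.1 CPM in knockout against 4580 and 3292 CPM in the fibroblasts, or 0.378% and 0.823% of the fibroblast level. *Ccnd2* in ES cells was at 1.08% and 2.20% of its fibroblast level, and *Ccnd1* at 9.34% and 17.8%. Barcodes under 500 UMIs held 137 and 95.1 CPM of the 14 markers and, of *Ccnd2*, 141 and 123 CPM, above its level in ES cells of either library. With fibroblasts left in, *Ccnd1* and *Ccnd2* moved to ratios of 0.523 and 0.475.

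Cells within a library differed in G1 genes along with other programs. The 1600 WT and 1097 knockout ES cells with at least 2000 UMIs were thinned to 2000 UMIs and ranked by their UMIs on 5 gene lists, none of which holds a member, and the top 533 WT and 365 knockout cells were compared with the same number at the bottom. *Ccne2* and *Cdk2* were higher and *Ccnd2* lower, by at least 1.5-fold in both libraries, in cells with many UMIs on 40 S-phase genes. Of all other counted genes 4.27% were higher and 1.22% lower in that sense. Only the ranking was thinned, and CPM used all UMIs of a cell. In knockout the top and bottom cells had medians of 8062 and 6777 UMIs for S-phase genes and 8073 and 6322 UMIs for G2/M genes. For ribosomal protein genes the medians were 6543 and 8239 UMIs. The WT medians were 6450 and 6439, 7124 and 6084, and 6510 and 6567 UMIs. Knockout *Cdk2* itself was at 88.7 CPM from 2000 to 5000 UMIs and 136 CPM above 10000 UMIs.

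Along the S-phase list *Ccne2* had 73 UMIs in the top and 15 in the bottom WT cells, or 20.1 and 4.001 CPM, a ratio of 5.01 (2.85 to 9.41), and 37 and 12 UMIs in knockout, a ratio of 2.57 (1.31 to 5.42). With another random thinning the WT ratio was 1.85, so its size is loosely fixed. *Cdk2* was at 134 CPM in the top and 83.0 CPM in the bottom WT cells, a ratio of 1.61 (1.39 to 1.86), and at 157 and 94.8 CPM in knockout, a ratio of 1.65 (1.42 to 1.93). *Ccnd2* had ratios of 0.535 (0.379 to 0.747) and 0.590 (0.455 to 0.764), in WT on 55 UMIs in the top and 106 in the bottom cells. The 6 WT cells described above held 192 *Ccnd2* UMIs, while all WT ES cells below 2000 UMIs held 140. Part of those 192 UMIs was thus in the 215 UMIs of the ranked WT cells. How the 6 WT and 5 knockout cells fell at the ends of each list was not examined, so the *Ccnd2* ratios may rest on few cells. *Ccne1*, the more abundant E-type cyclin, had ratios of 1.02 (0.915 to 1.14) and 1.11 (0.971 to 1.26), with intervals that held 1, and those of *Cdk4* were 1.01 (0.945 to 1.08) and 0.973 (0.902 to 1.05).

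The 300 bases around the *Cdk2* start site (250 before to 50 after, RefSeq, GRCm38.p6, chr10:128705002-128705301, minus strand) are shown because *Cdk2* followed the S-phase list and its window held an E2F-type octamer. The octamers TTTCCCGC, TTTGGCGC, TTTCGCGC and TTTGCCGC were searched on both strands, and 2.26% of 32851 promoter windows of this length held 1 of them. Windows of *Ccnd3*, *Ccne1*, *Cdk4*, *Cdk6* and *Cdkn1b* held none of these letters, and *Ccnd1*, *Ccnd2*, *Ccne2* and *Rb1* were not searched. The match is in capitals and starts 140 bases before the start site. It is a run of letters, not a shown site. The window was picked on both counts, and a link between the match and the S-phase list was not tested.
*Cdk2* promoter: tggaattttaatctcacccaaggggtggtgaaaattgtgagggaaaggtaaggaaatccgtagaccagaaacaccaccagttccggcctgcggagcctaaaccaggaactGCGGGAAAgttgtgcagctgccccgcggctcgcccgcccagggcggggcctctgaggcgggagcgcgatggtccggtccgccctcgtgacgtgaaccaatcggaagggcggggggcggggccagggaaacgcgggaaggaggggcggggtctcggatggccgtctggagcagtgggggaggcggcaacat

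Along 43 G2/M genes *Ccnd2* was the only counted member past 1.5-fold in both libraries, lower with ratios of 0.525 (0.375 to 0.730) in WT and 0.451 (0.347 to 0.584) in knockout, where 1.42% of genes were lower and 5.02% higher. In WT *Ccnd2* had 60 UMIs in the top and 101 in the bottom cells, and the limit given for the S-phase list holds here too. *Ccnd1* and *Cdkn1b* were higher in the top cells, with ratios of 1.24 (1.11 to 1.39) and 1.48 (1.26 to 1.74) for *Ccnd1* and 1.42 (1.05 to 1.92) and 2.15 (1.247 to 3.84) for *Cdkn1b*. *Cdk6*, with 1.303 (1.125 to 1.511) and 1.251 (1.033 to 1.52), and *Cdk2*, with 1.155 (1.003 to 1.332) and 1.295 (1.103 to 1.523), were also higher. *Ccnd3* was lower, with ratios of 0.861 (0.797 to 0.929) and 0.894 (0.823 to 0.972).

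Along 12 naive pluripotency genes *Cdkn1b* was higher, at 35.5 CPM in the top and 22.4 CPM in the bottom WT cells, a ratio of 1.58 (1.19 to 2.11), and at 14.9 and 7.58 CPM in knockout, a ratio of 1.97 (1.14 to 3.51). It was 1 of 9 counted members higher and 0 were lower, where 4.68% of genes were higher and 1.24% lower. At both ends *Cdkn1b* was lower in knockout than in WT. *Ccnd3* had ratios of 0.779 (0.721 to 0.842) and 0.905 (0.833 to 0.983) along this list. *Cdk2* had 1.315 (1.143 to 1.515) in WT and 1.659 (1.417 to 1.946) in knockout, past 1.5-fold in knockout only. Along 12 primed epiblast genes, for which the median bottom cell had 0 and the median top cell 2 thinned UMIs, no counted member was past 1.5-fold in both libraries, where 0.0415% of genes were higher and 0.083% lower. *Ccnd2* differed by library there, at 2.29 (1.61 to 3.30) in WT and 0.827 (0.643 to 1.06) in knockout. The WT ratio rests on 114 and 46 UMIs, with the same limit from the few cells with the most *Ccnd2*. *Utf1*, *Igfbp2* and *Dnmt3b* held 2016, 1104 and 865 of the 4809 UMIs of this list in WT ES cells. *Utf1* is also 1 of the 6 core pluripotency markers, so the ranking is a weak measure of the primed state.

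LIN28 has also been tied to ribosomal protein (RP) genes in ES cells. *Ccne2*, *Cdk2* and *Cdkn1b* were lower in cells with many UMIs on 84 RP genes by at least 1.5-fold in both libraries, 3 of 9 counted members, where 32.9% of all genes were lower and 15.7% higher, so the members' share was that of genes at large. *Cdk2* was at 80.7 CPM in the top and 125 CPM in the bottom WT cells, a ratio of 0.644 (0.556 to 0.746), and 0.359 (0.298 to 0.431) in knockout. Its WT ratio was 0.682, inside 1.5-fold, when mitochondrial and RP UMIs were left out of the scaling and with another random thinning. *Ccne2* had ratios of 0.291 (0.170 to 0.480) and 0.136 (0.0353 to 0.380), and *Cdkn1b* 0.561 (0.416 to 0.752) and 0.530 (0.292 to 0.926). *Ccnd2* passed the limit in WT, at 0.291 (0.2 to 0.414), and not in knockout, at 0.752 (0.576 to 0.977), and *Cdk6* had 0.681 (0.585 to 0.791) and 0.452 (0.364 to 0.557). *Ccnd3* had 1.48 (1.37 to 1.60) and 1.34 (1.23 to 1.45), *Ccne1* had 1.28 (1.14 to 1.42) and 1.45 (1.27 to 1.64), and *Cdk4* was even at 0.995 (0.930 to 1.07) and 1.02 (0.945 to 1.102). These ratios of *Ccnd3* and *Ccne1* stayed inside 1.5-fold, and *Ccnd1* had 0.790 (0.708 to 0.880) in WT and 0.543 (0.456 to 0.645) in knockout.

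**Figure D5:**
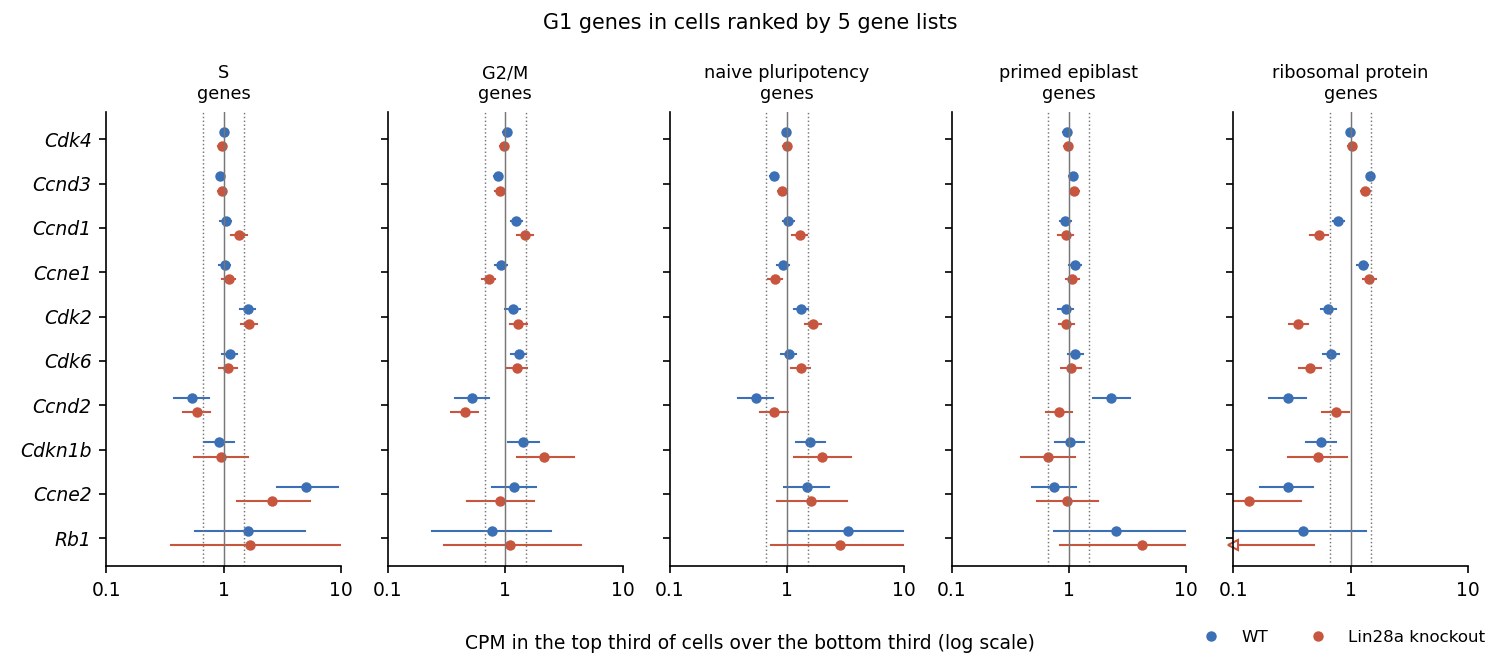
CPM in the top 533 WT and 365 knockout ES cells over the same number at the bottom, ranked by 5 gene lists (log axis, lines are exact 95% counting intervals, cut at the panel edges, dotted lines at 1.5-fold), for WT (blue) and knockout (red) cells. *Ccne2* and *Cdk2* lay right of the line for S genes and left of it for RP genes in both libraries, *Cdk4* stayed near 1 in all panels, and the open triangle marks 0 *Rb1* UMIs in the top knockout cells.

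Where RP genes took less than 5% of a cell's UMIs, in 83 WT and 228 knockout ES cells, *Cdk6* was higher by a like factor in both libraries. *Cdk6* was at 251 CPM (19 UMIs) in these WT cells and 184 CPM (58 UMIs) in these knockout cells, 2.42-fold (1.45 to 3.8) and 2.36-fold (1.77 to 3.08) above the other ES cells. *Cdk4* was lower at 92.5 CPM (7 UMIs) and 199.6 CPM (63 UMIs), with ratios of 0.205 (0.0823 to 0.422) and 0.410 (0.315 to 0.526). *Ccnd3* was lower too, with ratios of 0.4015 (0.2003 to 0.719) and 0.486 (0.372 to 0.625). The share of all genes past 1.5-fold was not taken for this split, and depth was not matched. *Ccnd2* had 71 UMIs in these WT cells, of which 1 cell held 65, and the remaining 6 UMIs gave 83.4 CPM in the other cells. That cell is 1 of the 6 with the most *Ccnd2* described above, and the 36.8-fold ratio of *Ccnd2* in the WT class rests on it. It also held 26 of the 33 *Ccnd1* UMIs of the class, but 2 of the 19 *Cdk6* UMIs. In these knockout cells *Ccnd2* was at 88.7 CPM, 2.16-fold (1.42 to 3.17) above the other ES cells, with no more than 2 UMIs in a cell, and *Ccnd1* at 98.2 CPM, a ratio of 0.801 (0.541 to 1.14).

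Counts of pairs of members correlated weakly from cell to cell. Positive ES cells had a median of only 1 to 3 UMIs of these members. Such low counts hold r near 0 by themselves, so a low r does not show that members vary apart. Over the 1600 WT cells, with values on a log scale of counts per cell total, Pearson's r between 7 members with at least 500 UMIs ran no higher than 0.117, for *Ccnd3* with *Ccne1*, which was 0.124 in the 1097 knockout cells. Of the 3 genes among 6127 with the highest r to a member in WT, those with r of at least 0.15 in both libraries are named. For *Cdk2* they were *Hnrnpf*, *Ptma* and *Hnrnpa2b1*, with r of 0.195, 0.191 and 0.188 in WT and 0.321, 0.331 and 0.328 in knockout. For *Ccnd3* they were *Gapdh*, with 0.207 and 0.290, and *Rpl37a*, with 0.195 and 0.249, and for *Cdk6* *Morf4l1*, with 0.15 and 0.151. *Top2a* had a higher r with *Cdk6* in WT, 0.173, but 0.113 in knockout. These cells share a library and differ in depth, and such weak values are given as a description.

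Other genes of the pathway were counted by lists, with 7.89% of all genes lower and 6.88% higher as the background. Of 6 other CDK inhibitors 3 were counted and 0 were past 1.5-fold. The rest had too few UMIs to be counted. They were *Cdkn2b* with 10 and 27 UMIs, *Cdkn1c* with 18 and 4 UMIs and *Cdkn2c* with 24 and 15 UMIs. Their ratios were 3.28 (1.54 to 7.59), 0.270 (0.0665 to 0.820) and 0.759 (0.370 to 1.51). *Cdkn1a* (p21) was at 227 and 213 CPM, a ratio of 0.940 (0.886 to 0.997), *Cdkn2a*, the locus of p16 and p19ARF, at 16.6 and 24.4 CPM, a ratio of 1.47 (1.21 to 1.79), and *Cdkn2d* (p19) at 31.5 and 36.6 CPM, a ratio of 1.16 (0.999 to 1.35), so *Cdkn1b* was the only counted CDK inhibitor past 1.5-fold. The pocket protein gene *Rbl1* had a ratio of 0.873 (0.691 to 1.099), and *Rbl2*, with 86 UMIs, was not counted.

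Of 10 E2F and DP factors 8 were counted, 2 were lower and 0 higher. *E2f3*, an activator of S-phase genes, was at 55.3 CPM in WT and 35.3 CPM in knockout, a ratio of 0.639 (0.557 to 0.732), and *E2f5*, a factor that works with pocket proteins in repression, at 24.7 and 12.8 CPM, a ratio of 0.518 (0.414 to 0.644). The members of this list with the most UMIs, *E2f4* and *Tfdp1*, had ratios of 1.15 (1.07 to 1.248) and 0.815 (0.751 to 0.885).

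Of 7 genes of CDK activation all 7 were counted, 3 were lower and 1 higher. *Mnat1* and *Ccnh*, subunits of the CDK-activating kinase, had ratios of 0.489 (0.431 to 0.553) and 0.643 (0.547 to 0.753), and the phosphatase gene *Cdc25a*, which activates CDK2, was at 202 and 123 CPM, a ratio of 0.609 (0.566 to 0.654). *Cdc25b*, a phosphatase of the entry into mitosis, was at 10.1 and 19.3 CPM, a ratio of 1.91 (1.503 to 2.44), and the inhibitory kinase gene *Wee1* had 1.13 (1.02 to 1.248).

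Of 8 genes of p27 and cyclin E turnover all 8 were counted, 2 were lower and 0 higher. *Skp2*, the ubiquitin ligase subunit that targets p27, had a ratio of 0.644 (0.555 to 0.745), and *Fbxo5*, an inhibitor of the anaphase-promoting complex, 0.592 (0.533 to 0.656), while *Cks1b*, the cofactor of SKP2, and *Skp1a* had 0.814 (0.769 to 0.863) and 0.783 (0.738 to 0.831). On a list of 6 genes that holds the later cyclins and *Cdk1*, 5 were counted and 0 were past 1.5-fold, with *Ccnb1* at 0.980 (0.919 to 1.05) and *Cdk1* at 1.03 (0.970 to 1.104). The S-phase and G2/M lists had 7 of 40 and 8 of 43 genes lower, 0 higher, and median ratios of 0.811 and 0.801. The 7 S-phase genes were *Pcna*, *Hells*, *Nasp*, *Wdr76*, *Casp8ap2*, *Usp1* and *Clspn*, with ratios from 0.485 for *Hells* to 0.646 for *Nasp*. The 8 G2/M genes were *Mki67*, *Cenpf*, *Smc4*, *Bub1*, *Kif20b*, *Cenpe*, *Ctcf* and *Cbx5*, with ratios from 0.434 for *Kif20b* to 0.665 for *Cenpf*, while *Hmgb2* and *Tubb4b*, with the most UMIs of that list, had 0.775 and 1.26. On the pluripotency lists *Fgf4* was higher at 1.63 (1.46 to 1.82), and *Zic2* and *Sox2* were lower at 0.653 (0.526 to 0.806) and 0.568 (0.523 to 0.616).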

How the data were processed

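For 1 wild-type and 1 *Lin28a* knockout inDrop library the authors deposited UMI counts of each barcode, not normalized, as their inDrop pipeline wrote them. Per the labels the build was mm10 and Seurat 2.3.4 was used. The aligner and the annotation are not given in the sources used here. Genes were named by identifier through GENCODE M21 (54079 of 54146), and 0 or 1 UMI of each member was listed as ambiguous per library. *Ccnd1*, *Ccnd2*, *Ccnd3*, *Ccne2*, *Cdk2*, *Cdk4*, *Cdk6* and *Rb1* overlap annotated genes on the other strand, and the strand setting of the counting is not given in the sources used here.

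Counts were summed over cells and scaled to total UMIs, with exact Poisson intervals, exact conditional binomial intervals for ratios and Clopper-Pearson intervals for shares. Members, lists and tests were chosen with earlier results of these data known. Named by rule were all members, the genes of each other list past 1.5-fold and the 2 with the most UMIs (on the pluripotency, endoderm and fibroblast lists the latter are not all printed), marker genes, and for each member up to 3 genes with r of at least 0.15 in both libraries. Doublets were left in and removed as an alternative (Scrublet in scanpy 1.11.5 called 27 WT and 18 knockout cells). Shares at 500 UMIs are hypergeometric. Calls past 1.5-fold and the ranking by state were tested on simulated data with changes larger than that limit. The simulated ratios were divided by their median, which was not done for the reported ratios, and the intervals were not tested. Python 3.11.15, numpy 2.4.6, scipy 1.17.1 and pandas 2.3.3 were used.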

Additional observations from a re-analysis of the deposited data

How the results depend on the processing

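Each member ratio was computed under 14 alternatives, 2 of them added after the data were seen. Of 140 values 128 lay within the counting interval of the main value. *Ccnd2* moved most. It reversed to 0.96 with a fibroblast limit of 1%, 0.475 with fibroblasts left in and 0.505 with cells weighted equally. It was 1.81 and 2.07 with minimums of 1000 and 2000 UMIs, 1.64 without doublets, 1.61 without cells under 5% RP, 1.73 without cells lacking core marker UMIs and 1.17 without cells with at least 0.1% of UMIs on 17 fibroblast markers. *Ccnd1* was 0.523 with fibroblasts left in, *Cdk4* 1.02 under median of ratios scaling, and *Cdk2* 0.891 with cells weighted equally. The count of members higher became 1 with both UMI minimums, without doublets, without cells under 5% RP or lacking core markers, and at the smaller of the other fold limits. In those choices of cells 6.68% to 6.86% of all genes were higher, against 6.88% in the main setting. The count of members lower became 3, with *Ccnd1* added, at fibroblast limits of 0.1% (0.663) and 1% (0.628), under median of ratios scaling (0.644) and without the cells past the 17-marker limit (0.659). It became 4 with fibroblasts left in, with cells weighted equally and at that smaller limit, and 1 at a fold of 2. Of all genes, 8.5% were lower with fibroblasts left in, 11.1% with cells weighted equally and 10.1% under median of ratios scaling. In the other settings with a count of 3 the share was 7.83% to 7.97%, against 7.89% in the main setting. No share of all genes is given here for the other fold limits. *Cdkn1b* ranged from 0.346 to 0.422 and *Ccne2* from 0.464 to 0.573. The cause of the moves was not tested. By cell state 8 calls were made, and 7 to 11 under 4 alternatives, for which no share of all genes is given here. No paired analysis was possible because each genotype is 1 library, so no replicate could be left out.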

Other observations

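The cells outside the fibroblast rule with the most *Ccnd2*, chosen for at least 2 *Ccnd2* UMIs that made up at least 0.2% of the cell, held other genes at levels unlike those of the remaining cells. In the 6 WT cells *Ccnd1* was at 4780 CPM against 177.5 CPM in the other WT ES cells, and in the 5 knockout cells at 1031 against 119.1 CPM. The actin-binding protein gene *Tagln* was at 2099 CPM in the 6 WT cells and 368 CPM in the 5 knockout cells against 0.982 and 2.39 CPM in the others, and *S100a6* at 6529 and 3055 CPM against 7.59 and 12.6 CPM. *Col1a1*, a gene of the fibroblast rule, was at 233 CPM (2 UMIs) and 1288 CPM against 17.8 and 17.7 CPM. *Col1a2* and *Col3a1* had 0 UMIs in the WT cells and were at 331 and 147 CPM in the knockout cells. The 6 core pluripotency markers were at 349.8 and 184 CPM against 2912 and 3186 CPM, and 2 of their 3 WT UMIs were of *Sox2*. Whether these cells are ES cells thus cannot be told from the rule. *Ccne1*, *Ccne2*, *Cdk2*, *Cdkn1b* and *Rb1* had 0 UMIs in these 6 and 5 cells, which together held 8577 and 27167 UMIs. *Ccnd3* had 0 UMIs in the WT cells and 4 UMIs in the knockout cells. The cells were chosen on their values, so these levels are a description with no test.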
